A study of Mus musculus with 10 samples.

Results

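The genes described here encode the NAIP and NLRP3 inflammasomes, the enzymes and pore protein they act through, and the cytokine interleukin-18. They are Naip1, Naip2, Naip5, Naip6, Nlrc4, Nlrp3, Pycard, Casp1, Gsdmd and Il18, chosen by name as 10 of the 45706 genes counted, and none was left out by the filter on low counts. They were measured by RNA-sequencing of whole uteri at gestation day (GD) 3.5, with 5 uteri of Ltf iCre/+ Arid1a f/f mice and 5 of Arid1a f/f mice (Control). In Arid1a f/f mice both copies of Arid1a, a subunit gene of the SWI/SNF chromatin remodeling complex, carry loxP sites and are left intact. In the Ltf iCre/+ Arid1a f/f mice, named mutant from here on, 1 lactoferrin (Ltf) allele also expresses iCre recombinase, which is active in the endometrial epithelium of adult females. The paper notes reports of Ltf-iCre activity in neutrophils and other myeloid cells, and could not exclude deletion of Arid1a there. The females were adults of a mixed C57BL/6, 129S6/SvEvTac, 129P2/OlaHsd and 129S1/SvImJ background, mated with wildtype males and intact at collection on the third morning after a vaginal plug, and littermates served as controls where possible. The deletion was therefore restricted by the promoter of Ltf, while the RNA came from all cells of the organ, so that fewer cells of a type and less RNA per cell cannot be told apart.

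Inflammasomes are protein platforms that assemble in the cytosol when a sensor meets a microbial product or another danger signal. In mice NAIP1 and NAIP2 bind the needle and inner rod proteins of bacterial type III secretion systems, NAIP5 and NAIP6 bind flagellin, and each then joins NLRC4. NLRP3 responds to ion loss and membrane damage and recruits the adaptor ASC, encoded by Pycard. Both platforms activate caspase-1, which cuts the precursors of interleukin-1 beta and interleukin-18 and opens gasdermin D into a membrane pore. Epithelial cells and macrophages are known sources of the interleukin-18 precursor, and in the uterus interleukin-18 is known as a regulator of natural killer cells and blood vessels.

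The targeted gene was checked first. Arid1a measured 251, 210, 213, 192 and 197 counts per 1000000 counts (CPM) in Control replicates 1 to 5, and 208, 191, 179, 182 and 165 CPM in the mutant replicates. Arid1a was thus lower than every Control in 4 of 5 mutant uteri, with a log2 fold change of -0.20 (SE 0.09) that did not pass the test (edgeR quasi-likelihood test, adjusted p = 0.201). Libraries held 59296537 to 72702411 counts, and all 4 defining uterine genes of the list used (Hoxa10, Hoxa11, Pgr and Esr1) were present in them.

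The 4 Naip genes lie side by side on chromosome 13 (GRCm38) and are close copies of each other, which bears on every count below. All are on the minus strand, with Naip2 at chr13:100144063-100202092, Naip5 at chr13:100211739-100246323, Naip6 at chr13:100281121-100317674 and Naip1 at chr13:100407764-100452869. In an alignment of their coding sequences (4209 bases in Naip1, Naip5 and Naip6, and 4341 in Naip2), Naip5 and Naip6 were 97.0% identical and differed at 128 bases. The other pairs were 89.5% to 91.9% identical. The stretch below is printed because a 50-base read from it cannot be assigned to any of the 4 genes. It lies within the coding sequence and has no position at which they differ, so it is all in lower case (chr13:100444550-100444599 in Naip1, chr13:100189211-100189260 in Naip2, chr13:100246012-100246061 in Naip5 and chr13:100316364-100316413 in Naip6, minus strand).
All 4 Naip genes: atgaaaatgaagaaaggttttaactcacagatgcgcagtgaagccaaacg

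The 50-base stretch of the coding alignment with the most differences is printed next because it shows how well the members can be told apart elsewhere. Capitals mark the 31 of 50 positions at which the 4 genes are not all alike (chr13:100425706-100425755 in Naip1, chr13:100160445-100160494 in Naip2, chr13:100221777-100221826 in Naip5 and chr13:100299064-100299113 in Naip6, minus strand, 5′ to 3′, from GENCODE transcripts of GRCm38).
Naip1: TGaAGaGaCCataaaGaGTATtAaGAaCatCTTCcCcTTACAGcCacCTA
Naip2: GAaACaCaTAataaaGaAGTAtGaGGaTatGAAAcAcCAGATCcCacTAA
Naip5: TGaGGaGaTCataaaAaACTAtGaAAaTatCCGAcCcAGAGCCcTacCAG
Naip6: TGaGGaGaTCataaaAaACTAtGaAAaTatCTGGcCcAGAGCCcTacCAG
Here Naip5 differed from Naip1 at 21 positions and from Naip2 at 22, but from Naip6 at only 2.

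Over the longest transcript of each gene, 32.5% of all 50-base windows of Naip1 occurred unchanged in a transcript of another gene. This share was 19.4% for Naip2, 36.9% for Naip5 and 21.5% for Naip6. Naip5 and Naip6 shared most with each other (22.3% and 16.9% of their windows), and Naip1 shared most with the pseudogene Naip3 (23.2%). With read pairs, the share of 300-base fragments whose ends both occurred in the same other gene was smaller, at 8.60%, 3.16%, 11.6% and 5.71% in the same order. The counting used here keeps only reads with a single place in the genome, so such reads would be lost from a Naip gene rather than added to a paralog unless they carry an error. Levels of the Naip genes are therefore uncertain, most of all the division between Naip5 and Naip6. Of the other members, Casp1, Gsdmd, Il18 and Nlrp3 had no shared window and Nlrc4 had 1.13%. Pycard shared 11.8%, nearly all of it with Gm45205, which overlaps it on the opposite strand, and whether strand was used in counting is not given in the sources used here.

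Naip1 and Il18 rose in mutant uteri, and for both genes every mutant uterus stood above every Control. These were the 2 of 10 members that passed the test (edgeR quasi-likelihood test, adjusted p under 0.05), and 0 members fell. Among the 25146 genes tested, 5.19% were called higher and 4.51% lower in mutant uteri, and in 5.53% all mutant uteri were above all Controls. The log2 fold change was above 0 for 10 of 10 members, compared with 52.7% of all genes, and its median was 0.56 compared with 0.03 over all genes. An unadjusted p under 0.05 with a higher level in mutant uteri was found for 8 members and for 14.3% of all genes. The highest of the 10 uteri was mutant replicate 5 for 6 members and replicate 4 for the other 4 members. Members share the uteri they were measured in and are not replicates of the genotype.

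**Figure D1:**
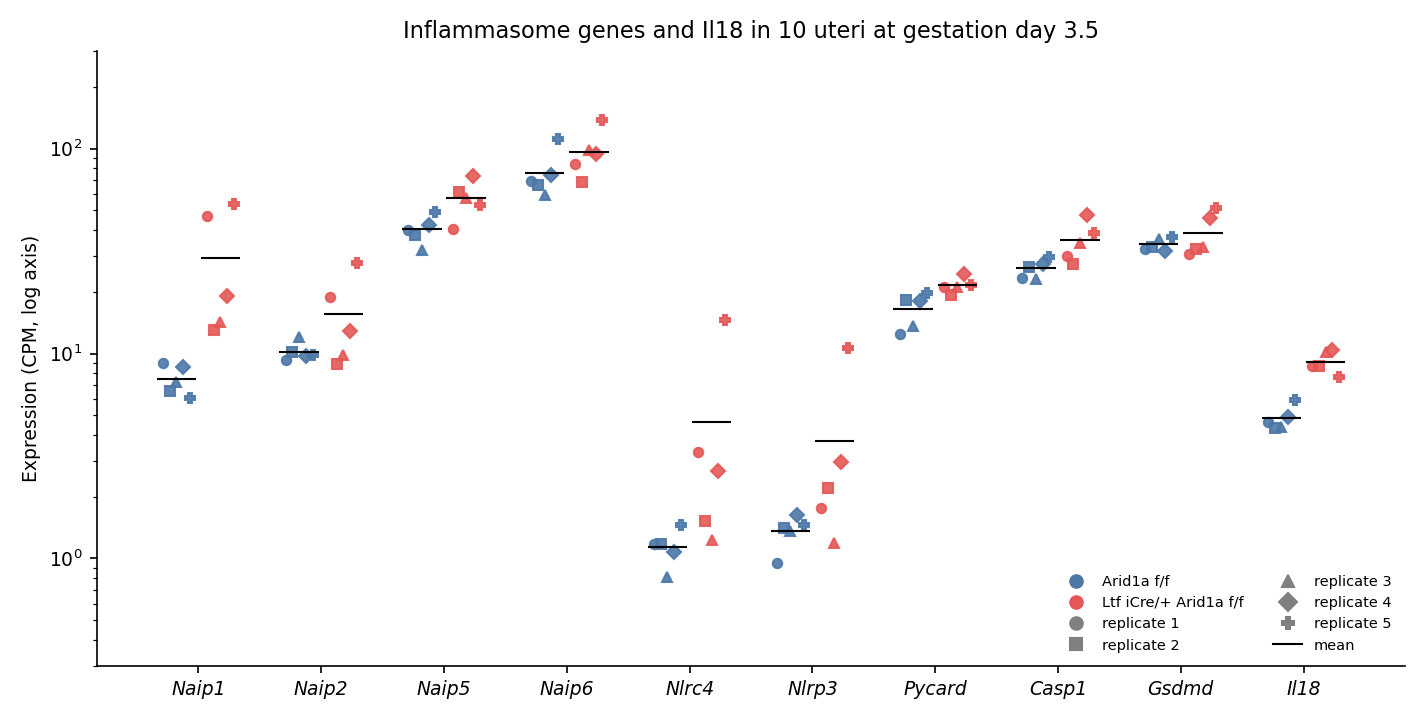
Expression of each gene in CPM (log axis) in the 5 Control uteri (blue) and the 5 mutant (Ltf iCre/+ Arid1a f/f) uteri (red), with 1 symbol shape per replicate number and black lines at the group means. Naip1 and Il18 show no overlap between genotypes, and replicate 5 (14.6 and 10.6 CPM) lies far above the other mutant uteri for Nlrc4 and Nlrp3.

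Among the sensors, Naip1 (ENSMUSG00000021640) was the 1 that passed the test. It measured 9.02, 6.55, 7.27, 8.55 and 6.06 CPM in Control replicates 1 to 5. In mutant replicates 1 to 5 it measured 46.8, 12.98, 14.2, 19.2 and 53.7 CPM, with replicates 1 and 5 far above the other 3. Naip1 was 3.92-fold higher on average (Control = 7.49 ± 1.27, mutant = 29.4 ± 19.4 CPM, mean ± SD of 5 uteri). The log2 fold change was 1.97 (SE 0.39, edgeR adjusted p = 0.0117). The exact permutation p of 0.00794 is the smallest that 5 uteri against 5 can give. Without mutant replicates 1 and 5 the log2 fold change of Naip1 was 1.04 (adjusted p = 0.00490), so its size depended on these uteri.

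Naip2 (ENSMUSG00000078945) measured 9.27 to 12.0 CPM in Control uteri and 18.8, 8.87, 9.86, 12.9 and 27.6 CPM in mutant replicates 1 to 5. The same replicates 1 and 5 were highest, replicate 2 was below every Control, and the groups overlapped. Naip2 did not pass the test (log2 fold change 0.62, SE 0.28, adjusted p = 0.184), and without replicates 1 and 5 its log2 fold change was 0.05.

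Naip5 (ENSMUSG00000071203) had another order of uteri. It measured 40.2, 37.7, 32.1, 42.3 and 49.2 CPM in Control replicates and 40.4, 61.6, 57.2, 73.5 and 52.8 CPM in mutant replicates, so that replicate 1, high for Naip1, was here the lowest of its genotype. In 4 of 5 mutant uteri Naip5 was above every Control. The log2 fold change of Naip5 was 0.50 (SE 0.15, adjusted p = 0.0630). It passed the test in 3 alternatives, namely with DESeq2 (adjusted p = 0.0262), without mutant replicate 1 (0.0234) and without replicates 1 and 5 (0.00978).

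Naip6 (ENSMUSG00000078942) was the most abundant of the 4 and overlapped between genotypes (Control = 76.1 ± 20.5, mutant = 96.6 ± 25.9 CPM, log2 fold change 0.34, SE 0.20, adjusted p = 0.315). Only replicate 5 of mutant, at 138 CPM, exceeded the highest Control, replicate 5 at 111 CPM.

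Counts of the 4 paralogs were also summed, since a read moved from one to another leaves the sum as it is. Reads lost because they could not be placed are missing from the sum as well. The Naip sum was 128, 121, 110, 135 and 176 CPM in Control replicates and 190, 152, 180, 200 and 272 CPM in mutant replicates, with only replicate 2 of the latter inside the Control range. Its log2 fold change of 0.57 (SE 0.16) was barely past the threshold (edgeR adjusted p = 0.0495). The Naip sum lost this call without any 1 of Control replicates 1 to 4 or of mutant replicates 1, 3, 4 and 5 (log2 fold change 0.43 to 0.60), and without both replicates 1 and 5 it was 0.40 (adjusted p = 0.111).

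The make-up of the Naip counts differed between genotypes. Naip1 gave 7.07%, 5.42%, 6.58%, 6.33% and 3.43% of the Naip counts in Control replicates 1 to 5, and 24.7%, 8.53%, 7.88%, 9.60% and 19.7% in mutant replicates. Its share was higher in 5 of 5 mutant uteri than in any Control, by 8.32 percentage points on average (two-sided exact permutation test, p = 0.00794, not adjusted for the 4 shares tested). The difference in the share of Naip1 was 5.67 points without mutant replicate 1 and 2.90 points without both replicates 1 and 5 (exact p = 0.0357, the smallest that 5 uteri against 3 can give).

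The share of Naip6 was lower in mutant uteri (Control = 56.2 ± 3.93%, mutant = 48.4 ± 4.39%, n = 5 each, exact permutation p = 0.0238), with 4 of 5 below every Control. Without replicates 1 and 5 of mutant the difference was -7.18 points in place of -7.82, with fewer uteri in the test (exact p = 0.107). The share of Naip5 had about the same mean in both genotypes, 30.2% and 30.0% (n = 5 each, exact permutation p = 0.937), but not the same spread. It ran from 27.9% to 31.5% in Control uteri, and in mutant replicates 1 to 5 it was 21.3%, 40.5%, 31.8%, 36.8% and 19.4%, with 2 uteri below and 3 above the whole Control range. The share of Naip2 was 7.85 ± 1.96% and 7.57 ± 2.28% (n = 5 each, exact permutation p = 0.857). Per Naip5 count there were 0.123 to 0.226 Naip1 counts in Control uteri, 0.211 to 0.261 in mutant replicates 2, 3 and 4, and 1.16 and 1.02 in replicates 1 and 5.

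**Figure D2:**
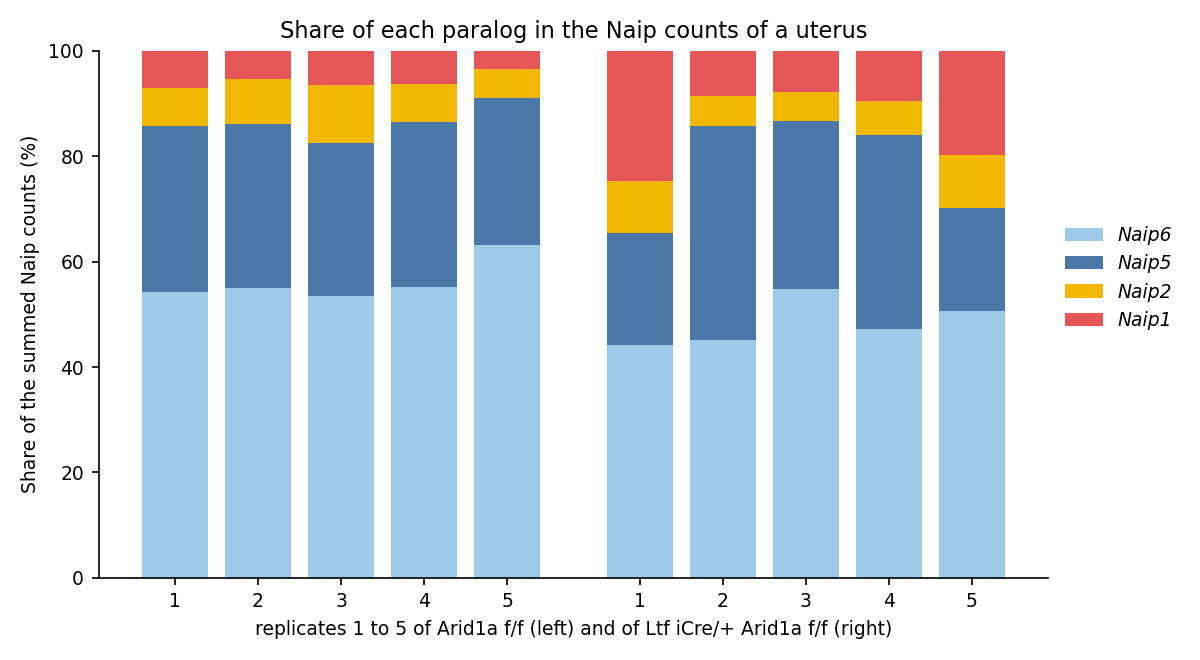
Share of each paralog in the summed counts of Naip1, Naip2, Naip5 and Naip6 (percent, 1 bar per uterus, replicates 1 to 5 of Control left and of mutant right). Naip1 takes 3.43% to 7.07% of each Control bar and 7.88% to 24.7% of each mutant bar, with the largest parts in replicates 1 and 5.

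The pseudogene Naip3, between Naip6 and Naip1 at chr13:100340144-100378960, went the other way. Naip3 measured 1.43, 1.02, 1.08, 1.35 and 3.75 CPM in Control replicates and 0.267, 0.287, 0.572, 0.566 and 0.911 CPM in mutant replicates, each of the latter below every Control. Its log2 fold change was -1.72 (SE 0.45, edgeR adjusted p = 0.0364), and this call was lost when any 1 library other than mutant replicate 5 was left out (adjusted p 0.0515 to 0.0776). The low counts of Naip3 and its shared windows with Naip1 make its level uncertain.

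Of the 28 other tested genes within 1 Mb of the Naip genes, 4 rose and 3 fell, Naip3 included, and their median log2 fold change was 0.08. Over all tested genes 5.19% rose and 4.51% fell. Serf1 rose (log2 fold change 0.62, adjusted p = 0.00893), as did the kinetochore gene Cenph (0.78, adjusted p = 0.0365). Ocln (0.51, adjusted p = 0.0185) and Marveld2 (0.69, adjusted p = 0.0174), which encode the tight junction proteins occludin and tricellulin, were the others that rose. The 2 others that fell were Zfp366 (-1.23, adjusted p = 0.00652) and the pseudogene Hmgb1-ps9 (-2.21, adjusted p = 0.0250, with a Control mean of only 0.122 CPM). Gtf2h2, the tested gene next to Naip1 on the far side from Naip6, had a log2 fold change of -0.01.

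Nlrc4 (ENSMUSG00000039193, chr17:74425438-74459142), the shared partner of the NAIP proteins, was scarce. It measured 1.175, 1.171, 0.815, 1.08 and 1.45 CPM in Control replicates and 3.29, 1.52, 1.23, 2.66 and 14.6 CPM in mutant replicates. Replicate 3 lay inside the Control range, 4 uteri lay above it, and replicate 5 stood 6.70-fold above the mean of the other 4. The log2 fold change of Nlrc4 was 2.03 (SE 0.62) and did not pass the test (adjusted p = 0.0608). It was 0.93 without mutant replicate 5 (adjusted p = 0.0839) and 0.66 without replicates 1 and 5 (0.188), whereas leaving out replicate 2 or 3 brought it past the threshold (0.0415 and 0.0355).

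Nlrp3 (ENSMUSG00000032691, chr11:59541568-59566956), the sensor of ion loss, showed a like pattern at a like level. It measured 0.951, 1.41, 1.36, 1.63 and 1.46 CPM in Control replicates and 1.77, 2.21, 1.19, 2.96 and 10.6 CPM in mutant replicates, with replicate 3 again inside the Control range. Nlrp3 did not pass the edgeR test (log2 fold change 1.46, SE 0.53, adjusted p = 0.104) and passed that of DESeq2 (0.0251). Without mutant replicate 5 its log2 fold change was 0.58.

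**Figure D3:**
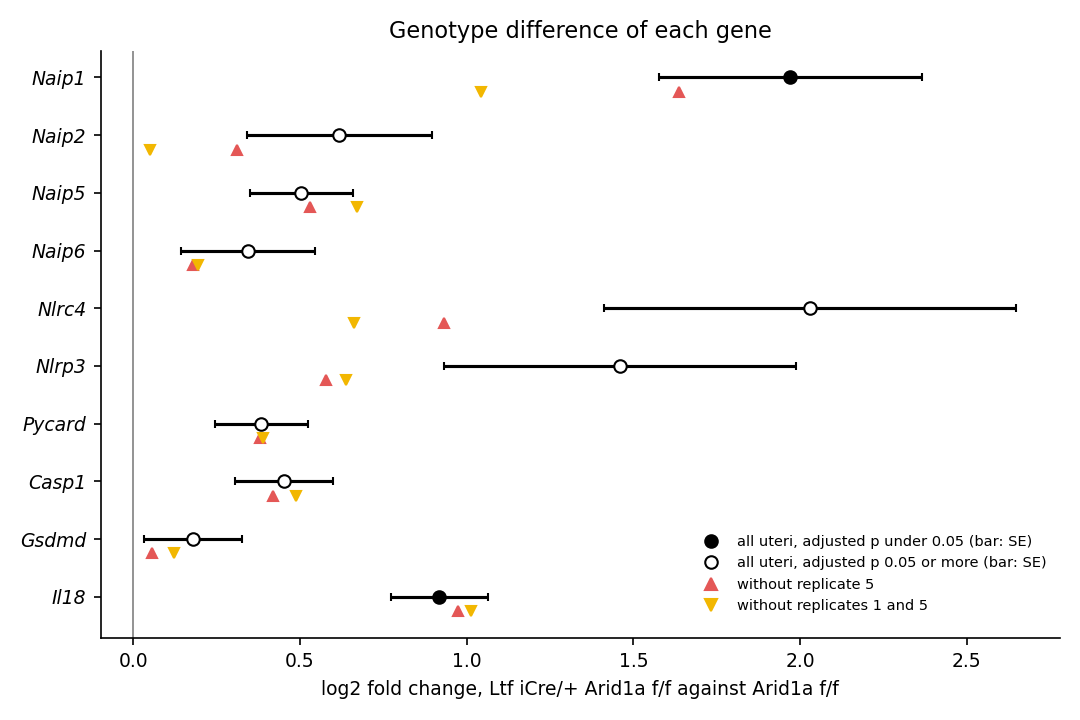
Log2 fold change of mutant against Control uteri for each gene (circles, filled where the adjusted p was under 0.05, with bars of 1 SE), and the same without mutant replicate 5 (red) or without replicates 1 and 5 (yellow). Il18 stays between 0.92 and 1.01, while Nlrc4 falls from 2.03 to 0.93 and 0.66, and Naip1 from 1.97 to 1.64 and 1.04.

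The adaptor, the protease and the pore protein differed less. Pycard (ENSMUSG00000030793, chr7:127989708-127993867) measured 12.4 to 19.8 CPM in Control and 19.2 to 24.4 CPM in mutant uteri, with 4 of 5 above every Control (log2 fold change 0.38, SE 0.14, adjusted p = 0.105). Casp1 (ENSMUSG00000025888, chr9:5298517-5307265) measured 23.1 to 29.7 CPM and 27.3 to 47.5 CPM, also with 4 of 5 above (log2 fold change 0.45, SE 0.15, adjusted p = 0.0749). Casp1 passed the test with DESeq2 (0.0362) and without mutant replicate 2 (0.0410), and Pycard in none of the 17 alternatives.

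Gsdmd (ENSMUSG00000022575, chr15:75862327-75867408) overlapped between genotypes. It measured 31.6 to 37.2 CPM in Control uteri and 30.5, 32.3, 33.1, 45.9 and 51.4 CPM in mutant replicates 1 to 5, so that replicates 4 and 5 alone exceeded the Controls. Its log2 fold change was 0.18 (SE 0.15, adjusted p = 0.491).

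Il18 (ENSMUSG00000039217, chr9:50554827-50581840), the cytokine at the end of the pathway, rose by a similar amount in each mutant uterus. It measured 4.64, 4.31, 4.39, 4.89 and 5.94 CPM in Control replicates and 8.73, 8.70, 10.2, 10.4 and 7.67 CPM in mutant replicates, and the lowest of the latter was replicate 5, the highest for 6 other members. On average Il18 rose 1.89-fold (log2 fold change 0.92, SE 0.15, edgeR adjusted p = 0.00443). Leaving out any 1 uterus gave log2 fold changes of 0.87 to 1.00, and leaving out replicates 1 and 5 gave 1.01 (adjusted p = 0.00316).

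Scaled to exon length, the downstream genes stood above the NAIP partner and NLRP3. In Control uteri the order in CPM per kilobase of exon was Casp1 (17.4 ± 1.88), Gsdmd (14.3 ± 1.03), Naip6 (11.1 ± 3.00), Naip5 (7.74 ± 1.20), Il18 (4.69 ± 0.641), Pycard (4.33 ± 0.848), Naip2 (2.10 ± 0.218), Naip1 (1.35 ± 0.229), Nlrp3 (0.336 ± 0.0622) and Nlrc4 (0.237 ± 0.0474). Neighbours whose ranges over the 5 Control uteri overlapped were Casp1 and Gsdmd, Gsdmd and Naip6, Naip6 and Naip5, Il18 and Pycard, and Nlrp3 and Nlrc4. In mutant uteri the order of the first 6 genes was unchanged, Naip1 (5.30 ± 3.50) stood above Naip2 (3.22 ± 1.60), and Nlrc4 (0.968 ± 1.17) above Nlrp3 (0.925 ± 0.960), in both cases within the spread. Exon length was the sum of all annotated exon bases of a gene, and the scaled levels of the Naip genes lack the reads that could not be placed.

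The members did not vary together from uterus to uterus. After subtracting each genotype's mean from log2 CPM, Naip1 and Naip2 had a Pearson r of 0.91 over the 10 uteri, Nlrc4 and Nlrp3 of 0.88, and Nlrc4 and Naip2 of 0.87. Naip1 had an r of -0.56 with Naip5 and of -0.52 with Il18, whereas Naip5 and Il18 had an r of 0.66. These values describe 10 uteri that differ in their cells, and replicate 5 of mutant weighs heavily in those of Nlrc4 and Nlrp3. Naip1 and Naip2 were both highest in mutant replicates 1 and 5, and their r without those uteri was not computed.

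By the same measure, among 14590 genes with a mean of at least 100 counts, the 3 most like Naip1 were Itpr3 (r = 0.99, Spearman rho = 0.98), Map3k9 (r = 0.99, rho = 0.96) and Pitpnc1 (r = 0.98, rho = 0.95). Naip1 was highest in mutant replicates 1 and 5 (46.8 and 53.7 CPM), and these correlations were not computed without those uteri. Those most like Il18 were Gm15501 (r = 0.94, rho = 0.95), Slc38a6 (r = 0.94, rho = 0.94) and Hspe1 (r = 0.94, rho = 0.85). The genotype difference itself was not part of this measure, and for Map3k9 it was about that of Naip1 (log2 fold change 1.99, adjusted p = 0.0190), while for Slc38a6 it was 0.00.

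Markers of other cell types moved with the genotype and with single uteri. Of 12 epithelial markers 8 rose and 0 fell (Epcam, Cdh1, Krt7, Krt8, Krt19, Cldn7, Elf3 and Wfdc2), and their median log2 fold change was 0.84. Their summed level was 1014 to 1333 CPM in Control uteri and 3145, 1809, 1563, 1959 and 2055 CPM in mutant replicates 1 to 5. The groups did not overlap. Replicates 1 and 5, highest for Naip1, had the largest sums, but replicate 5 barely exceeded replicate 4, whose Naip1 was 19.2 compared with 53.7 CPM. The markers were not alike in these uteri. Epcam (330 and 322 CPM), Krt7 (157 and 106 CPM) and Elf3 (426 and 210 CPM) were highest of all 10 uteri in replicates 1 and 5. Cldn3 was lowest of all 10 there (78.7 and 59.2 CPM, compared with 121 to 187 CPM in the others), Cldn4 was lowest of the mutant uteri there (22.0 and 35.8 CPM), and Krt18 (127 CPM) and Wfdc2 (135 CPM) were lowest of the mutant uteri in replicate 5. The part of epithelial content in the differences of Naip1 and Il18 was not tested.

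Of 8 neutrophil markers 2 rose, Ly6g and Mmp8, from Control means of only 0.108 and 0.0546 CPM. Summed levels of the 8 were 17.2 to 34.8 CPM in Control uteri, 19.4 to 33.4 CPM in mutant replicates 1 to 4 and 932 CPM in replicate 5. The uterus with the most Nlrc4, Nlrp3, Naip1 and Naip6 was thus also the only one rich in neutrophil transcripts. Macrophage markers summed to 390 to 729 CPM in Control uteri and to 589, 605, 710, 889 and 1763 CPM in mutant replicates 1 to 5, with 0 of 12 called and a median log2 fold change of 0.58. Of the monocyte markers 1 of 8 rose (Chil3), and their sum was 465 to 782 CPM in Control and 380 to 1154 CPM in mutant uteri. The part of these cells in the results for Nlrc4, Nlrp3, Casp1 and the Naip genes was not tested.

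T cell markers summed to 12.7 to 16.0 CPM in Control and 23.5 to 72.2 CPM in mutant uteri, and 3 of 6 rose (Cd3d, Cd3e and Cd3g). Of 6 natural killer cell markers 0 were called and all 6 had log2 fold changes below 0, at sums of 36.8 to 76.9 CPM and 19.9 to 70.0 CPM. All 5 endothelial markers fell, and of the dendritic cell (7), stromal (7), B cell (4), myometrial (6) and uterine (4) markers 1, 2, 0, 0 and 0 fell and none rose.

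**Figure D4:**
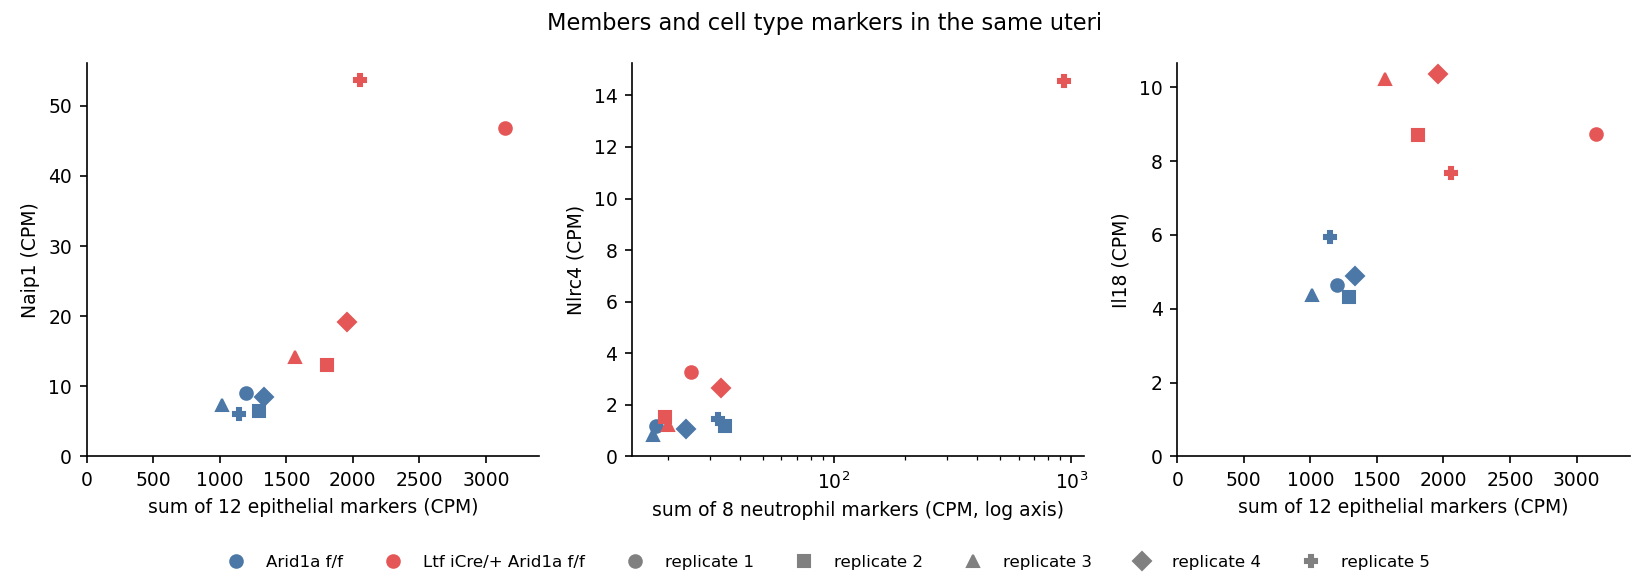
Level of a member in CPM against the summed CPM of 12 epithelial markers (Naip1 left, Il18 right) or of 8 neutrophil markers (Nlrc4, centre, log axis) in the same uterus, with colors for genotype and shapes for replicate numbers. Naip1 is highest in the 2 uteri with the largest epithelial sums (3145 and 2055 CPM, the latter close to 1959 CPM in replicate 4), Nlrc4 in the 1 uterus with a neutrophil sum of 932 CPM, and Il18 is split by genotype with no such order within it.

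Around the members, 67 further genes of the pathway were listed, of which 60 could be tested. Of these 6 rose and 2 fell, or 10% and 3.33% of them, compared with 5.19% and 4.51% of all tested genes. Leaving out Control replicate 2 left 3 of these 8 calls.

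Among 12 other sensors tested, 2 rose and 0 fell, and the median log2 fold change was 0.82 compared with 0.03 for all genes. Nlrc5, an inducer of MHC class I genes, measured 13.9 to 27.0 CPM in Control uteri and 46.6, 26.6, 28.4, 72.2 and 55.3 CPM in mutant replicates, with replicate 2 just inside the Control range (log2 fold change 1.26, SE 0.28, adjusted p = 0.0181, and 0.0555 without Control replicate 2). Mefv, encoding pyrin, was at 0.181 to 0.747 CPM in Control uteri and at 0.737, 0.896, 1.10, 1.77 and 10.5 CPM in mutant replicates (log2 fold change 2.81, SE 0.79, adjusted p = 0.0451). Without replicate 5 of mutant the log2 fold change of Mefv was 1.39 (adjusted p = 0.0647), and it also missed the threshold without replicate 4 or any 1 Control uterus. Aim2, a sensor of cytosolic DNA, had a log2 fold change of 0.31 (adjusted p = 0.454).

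Of 12 other proteases, gasdermins and the rupture protein gene Ninj1, 2 rose and 0 fell, with a median log2 fold change of 0.22. Gsdma, a gasdermin of epithelia, was very low but higher in every mutant uterus (Control = 0.171 ± 0.0336, mutant = 0.426 ± 0.114 CPM, n = 5 each, log2 fold change 1.31, edgeR adjusted p = 0.0197, and 0.0547 without Control replicate 2). Gsdmc2, also of a family of near copies, was at 0.188 to 0.345 CPM in Control uteri and at 1.55, 2.26, 1.60 and 3.46 CPM in mutant replicates 1 to 4, but at 1 count in replicate 5. Its log2 fold change of 2.82 (adjusted p = 0.0431) missed the threshold when any 1 uterus other than replicate 5 of mutant was left out (adjusted p 0.0581 to 0.102). Casp4, the murine caspase-11 gene that cuts gasdermin D outside the caspase-1 route, had a log2 fold change of 0.49 (adjusted p = 0.222).

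Among 12 activation partners and priming genes 0 rose and 1 fell, with a median log2 fold change of 0.09. Txnip, whose protein binds NLRP3 and thioredoxin, measured 828, 573, 564, 526 and 831 CPM in Control replicates and 372, 462, 324, 353 and 406 CPM in mutant replicates, each below every Control. Its log2 fold change was -0.79 (SE 0.16, edgeR adjusted p = 0.0117). Myd88 missed the threshold (log2 fold change -0.82, SE 0.30, edgeR adjusted p = 0.112). Like Txnip, Myd88 was below every Control in 5 of 5 mutant uteri (Control = 183 ± 29.1, mutant = 104 ± 49.9 CPM).

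The list of the interleukin-18 axis held receptor chains, the decoy, signaling proteins, Ifng and also Il1b, and 2 of its 10 genes rose and 0 fell, with a median log2 fold change of 1.02. Il18r1, the binding chain of the receptor, measured 9.41, 5.42, 4.73, 7.17 and 8.83 CPM in Control replicates and 15.2, 9.06, 25.2, 21.3 and 25.4 CPM in mutant replicates, with only replicate 2 inside the Control range (log2 fold change 1.43, SE 0.29, edgeR adjusted p = 0.0124). Il12rb1, a receptor chain for the interleukin-12 that acts together with interleukin-18, measured 0.987 to 1.41 CPM in Control uteri and 1.98, 2.94, 7.75, 9.28 and 4.85 CPM in mutant replicates, all above the Controls (log2 fold change 2.10, SE 0.38, adjusted p = 0.00810). Both genes are expressed by T cells and natural killer cells, and the T cell sums given above were highest in replicates 3, 4 and 5, as were Il18r1 and Il12rb1. The part of T cells in these 2 results was not tested. Il12rb2, the other interleukin-12 receptor chain on the list, was not called (log2 fold change 0.08, edgeR adjusted p = 0.905). Its level was 0.925 ± 0.291 CPM in Control and 0.979 ± 0.392 CPM in mutant uteri.

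Il18rap, the second chain of the interleukin-18 receptor, had a log2 fold change of 1.27 (SE 0.39, adjusted p = 0.0617), with 24.5 CPM in mutant replicate 5 and 4.92 to 13.4 CPM in the other 4. The decoy gene Il18bp had a log2 fold change of 0.77 (adjusted p = 0.148). Il1b, the other cytokine cut by caspase-1, was at 0.350 to 1.42 CPM in Control uteri and at 1.60, 1.12, 0.736, 2.19 and 76.0 CPM in mutant replicates. The log2 fold change of Il1b was 4.11 (SE 1.31, adjusted p = 0.0702) and 0.58 without replicate 5, so that nearly all Il1b came from the uterus rich in neutrophil transcripts.

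Among 8 inhibitors and negative regulators 0 were called, with a median log2 fold change of 0.01. Nfe2l2, the most abundant of them over all 10 uteri, was at 132 ± 7.60 and 152 ± 29.8 CPM (n = 5 each, edgeR adjusted p = 0.331). Of 5 other tested genes with the BIR domain that NAIP proteins share with inhibitors of apoptosis 0 were called, with a median of 0.10, and Xiap was at 199 ± 16.8 and 183 ± 13.9 CPM (edgeR adjusted p = 0.408).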

How the data were processed

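The authors extracted total RNA from uteri, prepared mRNA libraries and sequenced them as 50 bp read pairs. Per the labels, tools in their processing notes were cutadapt 1.18, Trim Galore 0.6.4, FastQC 0.11.9 and STAR 2.7.3a with the GRCm38 genome, and reads per gene were counted in the GeneCounts mode of STAR. The authors deposited 1 table of raw counts with no normalization. The annotation release and strand setting are not given in the sources used here.

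Symbols, coordinates and transcripts came from GENCODE M21 (45143 identifiers matched). The quasi-likelihood test of edgeR 4.0.16 (R 4.3.3) compared the genotypes over the 25146 genes whose mean count was 1 or more. Libraries were scaled by TMM, also for CPM, p-values were adjusted after Benjamini and Hochberg, and the threshold was 0.05. The SE given with a log2 fold change was derived from this test. It is the absolute log2 fold change divided by the square root of the F statistic. Single values were tested by a two-sided exact permutation test over 252 arrangements. Paralogs were aligned with mafft 7.526. DESeq2 1.42.0, its size factors, library totals, 2 other filters, a replicate block and leaving out uteri were the alternatives, 17 in all. The scripts were tested on simulated data.

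Named genes were the 10 members, Arid1a, each listed pathway gene past the threshold or else the most abundant of its list, 6 further pathway genes, called genes within 1 Mb of the Naip genes, and the 3 genes most like Naip1 and Il18. Gtf2h2, Myd88 and Il12rb2 were named after their values were seen. The members and lists were chosen with earlier results of these data known. Nothing states that replicates were separate litters, so p-values measure the spread between these uteri.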

Additional observations from a re-analysis of the deposited data

Results flagged for a closer look

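Among 28 groups of 5 values checked for a sample that stands apart (Dixon's criterion, critical value 0.71), 3 had one, and chance alone gives about 1 in 20. Nlrc4 was at 14.6 CPM in mutant replicate 5, compared with 1.23 to 3.29 CPM in the other uteri of its genotype. Nlrp3 was at 10.6 CPM in the same uterus, compared with 1.19 to 2.96 CPM. Both stand in the uterus whose neutrophil markers summed to 932 CPM, and the part of neutrophils in them was not tested. Naip6 gave 63.1% of the Naip counts in Control replicate 5, compared with 53.5% to 55.2% in the other Control uteri, and this was also the Control uterus with the highest Naip3 (3.75 CPM).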

How the results depend on the processing

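Of 170 values of single members under the 17 alternatives, 161 kept their direction and their side of the threshold, 9 newly passed it, and none lost a call or changed sign, so Naip1 and Il18 were called throughout. With DESeq2, 6 members were called (Naip1, Il18, Naip5, Nlrc4, Nlrp3 and Casp1) and 4103 genes in all in place of 2438, and leaving out 1 uterus gave 2 to 4 members, 1204 to 2381 genes and 3 to 8 of the 60 pathway genes. The causes of these shifts were not tested, other than that fewer uteri entered. The Naip sum missed the threshold with DESeq2 size factors (log2 fold change 0.57, adjusted p = 0.0510), library totals (0.57, 0.0606), no filter on low counts (0.57, 0.0512) and without mutant replicates 1 and 5 (0.40, 0.111), and it ran from 0.43 to 0.68 when 1 uterus was left out. The difference in the Naip1 share was 5.67 to 9.87 points when 1 uterus was left out. That in the Naip5 share changed sign, from -2.85 to 2.43 points with 1 uterus left out and to 6.20 points without replicates 1 and 5, as did that in the Naip2 share, from -0.92 to 0.47 points. That in the Naip6 share was -7.18 points without both (exact p = 0.107), and -9.43 to -6.09 points when 1 uterus was left out. With a replicate block 1704 genes, the same 2 members and 5 of the pathway genes were called, and Nlrc5, Gsdma and Gsdmc2 missed the threshold (adjusted p = 0.0586, 0.0558 and 0.192) at log2 fold changes of 1.185, 1.29 and 2.43. In their deviations from the genotype means, same-numbered uteri had correlations of -0.16 to 0.22, and 1 of 5 Controls correlated best with its own number. This check cannot tell whether same-numbered uteri were littermates or were handled together. Mefv, Gsdma, Gsdmc2, Naip3, Nlrc4, Nlrp3, Il12rb1, Il12rb2, Il1b, Hmgb1-ps9, Ly6g, Mmp8, Chil3, Cd3d and Gm15501 had Control means under 2 CPM. The part of depth in their results was not tested.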
